A study of Mus musculus with 23 samples.

Results

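The insulin-like growth factor (IGF) genes described here are 2 ligands (Igf1 and Igf2), 2 receptors (Igf1r and Igf2r) and 6 binding proteins (Igfbp2 to Igfbp7) in fibroblasts from mouse embryos, all with the H-RasV12 oncogene and with different p53 alleles. They were chosen by symbol: every probe set of the array whose only gene symbol was one of these 10 names was taken, which gave 28 probe sets among the 45037 that are not controls, for 10 of the 18193 genes named. All 28 passed the filter on low values used before testing, which 33942 probe sets passed. The cells form 5 groups on 23 arrays. In 25,26 cells (5 arrays) the first transactivation domain of p53 is mutated, in 53,54 cells (3 arrays) the second, and in QM cells (3 arrays) both. These 3 mutants are LSL knock-in alleles (a stop cassette flanked by sites that Cre recombinase joins), switched on with adenovirus carrying Cre. The WT group (6 arrays) joins LSL-WT+Cre, in which Cre switched on an LSL wild-type allele, and WT+Cre, fibroblasts with an ordinary p53 gene that received the same virus (3 arrays each). Only 2 of the 3 WT+Cre arrays carry the p53 wild-type genotype label: that of WT replicate 6, whose title reads WT+Cre, names LSL-WT with Cre, the genotype of the subgroup WT+Cre is compared with. The Null group (6 arrays) joins LSL-WT+Emp, the LSL wild-type cells given an empty adenovirus, and Null+Cre, p53-null cells given the Cre virus (3 arrays each). All cells, controls included, received retroviral H-RasV12, and each received an adenovirus, which was the empty one in LSL-WT+Emp alone. The strain label was 129/Sv or a mix of 129/Sv and C57BL6, unequally over the groups: mixed for 1 of 5 arrays in 25,26, 2 of 3 in 53,54, 1 of 3 in QM, 2 of 3 in LSL-WT+Cre, 1 of 3 in WT+Cre, 2 of 3 in LSL-WT+Emp and 0 of 3 in Null+Cre.

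IGF ligands are secreted factors that promote growth and survival through Igf1r, a receptor tyrosine kinase that signals through insulin receptor substrates, PI3 kinase and Akt. Igf2r carries Igf2 to the lysosome for degradation and also sorts lysosomal enzymes, and the binding proteins hold the ligands outside the cell, where proteases release them. In human cells IGFBP3 is a known p53 target, and several binding proteins are known among the factors that senescent fibroblasts secrete; H-RasV12 is known to bring on premature senescence in fibroblasts with working p53.

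The values are RMA intensities (background-corrected, normalized and summarised over the probes of a probe set) taken to log2, so a difference of 1 is a doubling. Where a gene had several probe sets, they are numbered by their mean over 23 arrays, the highest first. Levels of different probe sets cannot be set against each other, and only the same probe set is compared across arrays. Differences were tested with limma across all 33942 probe sets, with Benjamini-Hochberg adjustment and a threshold of 0.05 on the adjusted p. The labels do not say whether arrays of a group came from separate embryos or cultures, so the p-values reflect only how far these arrays differ. All comparisons with Null share the same 6 Null arrays. In bulk RNA, fewer cells of a type and less RNA per cell cannot be told apart. The sample titles end in a number from 1 to 5, and arrays with equal numbers deviated together across groups, so where a fit that blocks on this title number changed a call, its value stands with the result. Median intensity per array was 59.7 to 64.0. Fibroblast markers were present on all arrays (12 of 12 passed the filter, mean log2 level 11.83 to 13.63), while 4 of 6 macrophage markers on the array passed (Cd68, Csf1r, Adgre1 and Cd14) and Ptprc and Itgam did not. The mean log2 level of those 6 was 5.65 to 6.05 in WT and 5.47 to 5.78 in Null cells. Cd68, also a lysosomal protein, was higher in WT by 1.25 (adjusted p 0.00588 in limma). Csf1r, Cd14 and Adgre1 were not called in WT minus Null, at 0.06, 0.06 and -0.16 (adjusted p 0.836, 0.902 and 0.262 in limma). The part of these markers in the results was not tested.

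Across the 5 groups, in fits without the block, Igf1, Igf2r and Igfbp6 were the genes with called differences. The limma F test called 5 of the 28 probe sets, against 15.4% of all probe sets tested, and these were the 4 probe sets of Igf1 and that of Igfbp6. In WT minus Null 5 of 28 were called, 4 lower and 1 higher, against 16.9% of all probe sets called in either direction (8.78% lower and 8.15% higher). In 53,54 minus Null the count was also 4 lower and 1 higher, against 14.6% in either direction (7.49% lower and 7.11% higher). In 25,26 minus Null 2 of 28 were lower, against 2.7% in either direction and 0.772% lower. In QM minus Null limma called none of 28, against 0.0118% of all probe sets, and 5 of the 28 had an unadjusted p under 0.05 (2.1% of all probe sets). The median log2 difference of the 28 was -0.23 in WT minus Null, -0.31 in 53,54 minus Null and -0.28 in 25,26 minus Null, against -0.01, -0.01 and 0.00 over all probe sets tested. In QM minus Null it was 0.07 (-0.0003 over all probe sets). In LSL-WT+Cre minus LSL-WT+Emp it was -0.33 and in WT+Cre minus Null+Cre -0.08 (0.01 and -0.01 over all probe sets). These medians count probe sets, of which 6 are of Igfbp4, 5 of Igf1r and 4 of Igf1. The members' shares in WT minus Null and 53,54 minus Null lay near that of all probe sets. All calls against Null in the fits without the block were of Igf1, which was lower, or of Igf2r, which was higher.

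**Figure D1:**
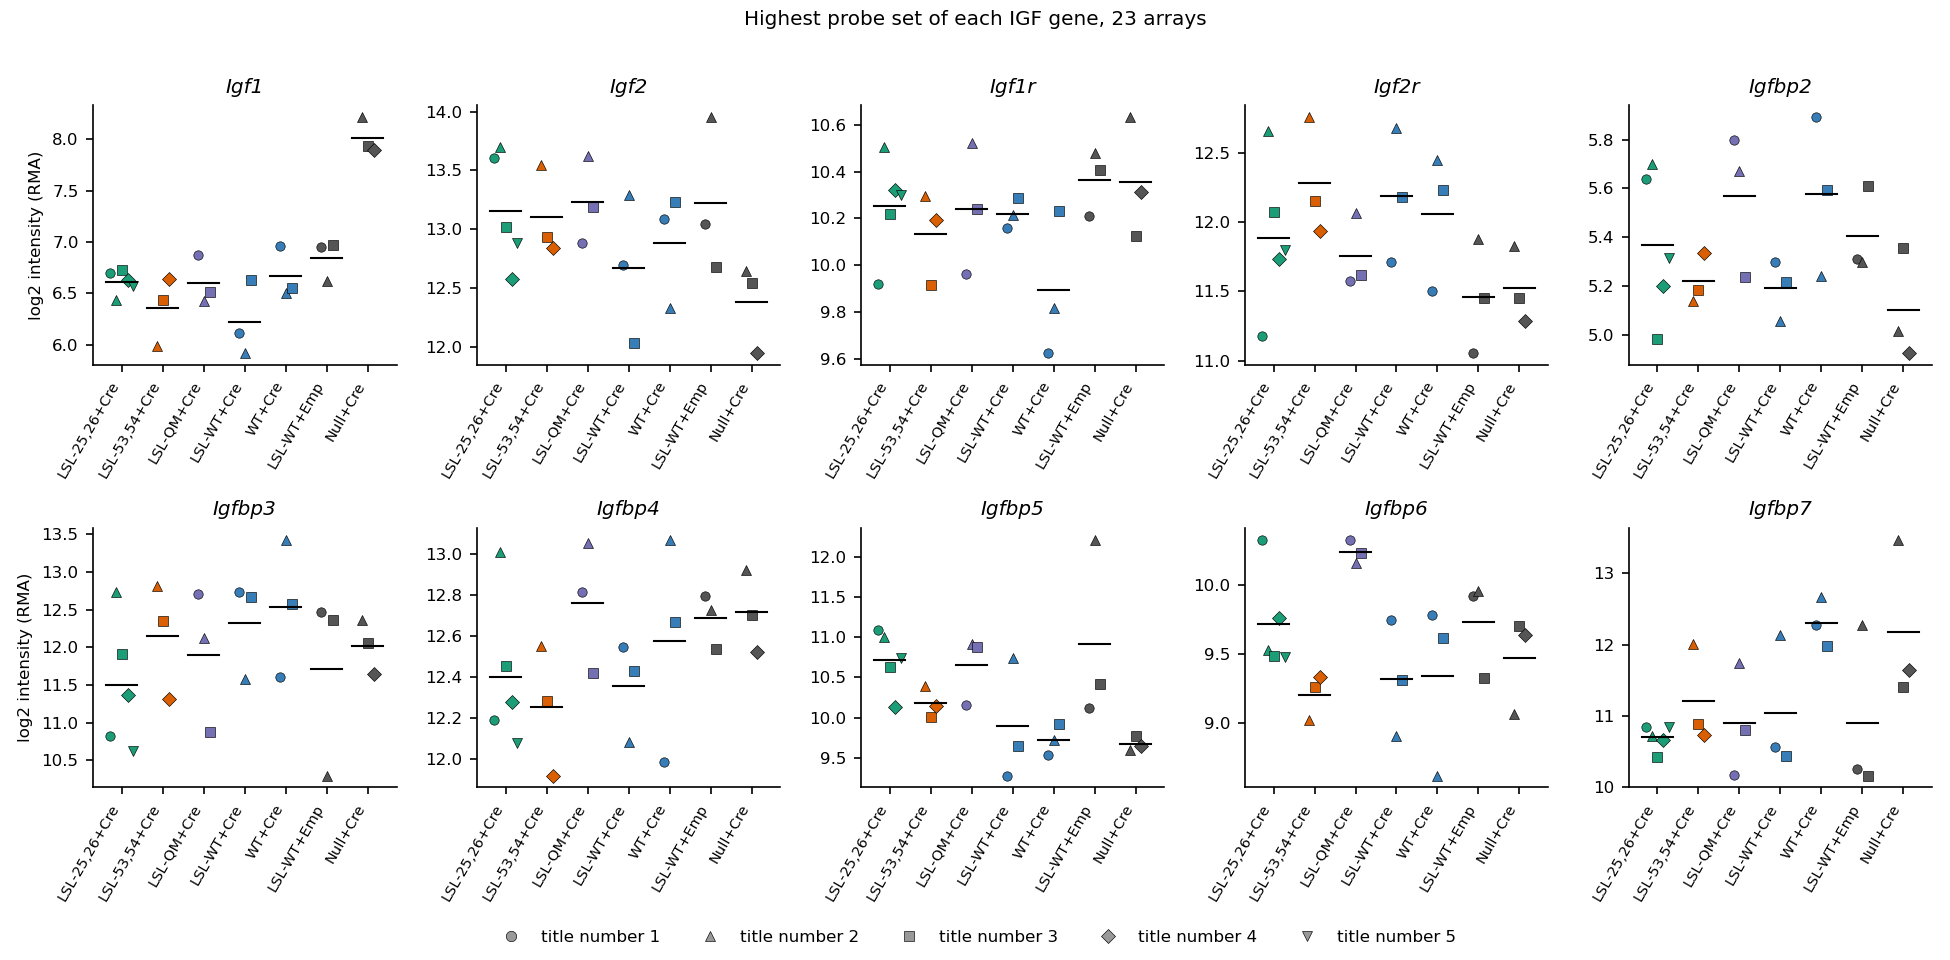
Log2 RMA intensity of the highest probe set of each of the 10 IGF genes on 23 arrays, by subgroup, with marker shape for the number in the sample title and a black line at the subgroup mean (each panel has its own vertical scale). The 3 Null+Cre arrays of Igf1 (7.89 to 8.22) lie above all 20 other arrays, and the 3 QM arrays of Igfbp6 (10.16 to 10.32) lie above all WT and Null arrays. The share of all probe sets with such a separation is not given here. WT+Cre and Null+Cre did not overlap in 25.3% of all probe sets, and QM and WT in 12.1%.

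The sequences before the transcription starts of the 3 genes with called differences among the 5 groups without the block are shown. They differ in base composition and in promoter elements. Each is the 250 bases upstream of a start in RefSeq on GRCm38.p6, written 5′ to 3′ on the gene's own strand, with capitals marking motif matches on either strand. The GC box searched was GGGCGG. The E-box was CACGTG. The TATA box was TATAAA, and the CCAAT box is named by its letters. Igf1 is at chr10:87860861-87861110 on the plus strand, which lies within the annotated gene (chr10:87858265-87937047), Igf2r at chr17:12769707-12769956 on the minus strand and Igfbp6 at chr15:102143936-102144185 on the plus strand.
Igf1: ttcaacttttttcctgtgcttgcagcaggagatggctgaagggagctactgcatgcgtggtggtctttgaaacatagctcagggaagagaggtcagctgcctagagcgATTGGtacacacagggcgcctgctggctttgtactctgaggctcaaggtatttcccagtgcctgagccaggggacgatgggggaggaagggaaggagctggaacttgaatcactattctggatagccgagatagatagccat
Igf2r: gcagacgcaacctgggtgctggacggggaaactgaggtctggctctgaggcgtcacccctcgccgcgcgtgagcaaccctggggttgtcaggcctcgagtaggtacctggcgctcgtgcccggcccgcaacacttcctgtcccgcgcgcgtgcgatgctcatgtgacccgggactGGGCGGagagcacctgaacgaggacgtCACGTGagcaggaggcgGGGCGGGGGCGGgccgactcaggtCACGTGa
Igfbp6: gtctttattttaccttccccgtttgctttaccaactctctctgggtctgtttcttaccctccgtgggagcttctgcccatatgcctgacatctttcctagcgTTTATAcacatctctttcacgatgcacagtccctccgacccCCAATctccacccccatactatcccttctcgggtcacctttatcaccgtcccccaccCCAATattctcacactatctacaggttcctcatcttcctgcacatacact
The Igf2r window held 3 GC boxes, 2 of them side by side, and 2 E-boxes, with 27 CpG dinucleotides against a median of 6 over 32851 RefSeq windows. The Igf1 window held 1 CCAAT box and 5 CpGs, and that of Igfbp6 held 2 CCAAT boxes, 1 TATA box and 7 CpGs. Of all windows 32.7% held a GC box, 33.8% a CCAAT box, 12.4% a TATA box and 6.02% an E-box. None of the 3 windows matched the p53 response element unit, which was found in 7.13% of all windows. These matches describe letters in the window and are not binding sites.

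Igf1, the growth factor that activates Igf1r, was lower in WT and in 53,54 cells than in Null cells, and the high level lay in 1 of the 2 kinds of Null cell. Its first probe set had log2 levels of 6.70, 6.43, 6.72, 6.63 and 6.57 in 25,26 cells, of 5.99, 6.44 and 6.64 in 53,54 cells and of 6.87, 6.42 and 6.51 in QM cells. In LSL-WT+Cre it had 6.11, 5.92 and 6.63 and in WT+Cre 6.96, 6.50 and 6.55, against 6.95, 6.62 and 6.97 in LSL-WT+Emp and 8.22, 7.93 and 7.89 in Null+Cre. The Null+Cre arrays were thus the highest of all 23, and the LSL-WT+Emp arrays lay within the range of WT+Cre and 25,26 or just above it. How many of all probe sets set Null+Cre apart from all other arrays is not given here.

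By group the mean was 6.61 ± 0.12 in 25,26 cells (SD, n = 5), 6.36 ± 0.33 in 53,54 cells (n = 3), 6.60 ± 0.24 in QM cells (n = 3), 6.45 ± 0.38 in WT cells (n = 6) and 7.43 ± 0.66 in Null cells (n = 6). The 4 groups with a p53 protein, mutant or wild type, were close to each other, and limma called no Igf1 difference among those compared. The Null mean joins 6.85 ± 0.20 in LSL-WT+Emp, which was also near these groups, and 8.01 ± 0.18 in Null+Cre (SD, n = 3 each). WT minus Null was -0.99 ± 0.23 (SE), 1.98-fold lower, with an adjusted p of 0.00433 in limma. The difference 53,54 minus Null was -1.08 ± 0.28 with an adjusted p of 0.0117, which became 0.0914 without 53,54 replicate 2, 0.0816 with only the compared arrays fitted and 0.0512 without the arrays of title number 2.

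The 25,26 and QM mutants gave differences of like size without a call on this probe set. For 25,26 minus Null it was -0.82 ± 0.24 (adjusted p 0.0798 in limma). For QM minus Null it was -0.83 ± 0.28 (adjusted p 1 in limma). With the 3 Null+Cre arrays alone as Null, these became -1.41 ± 0.19 (adjusted p 0.000441) and -1.41 ± 0.22 (adjusted p 0.019) in limma. That choice keeps only the Null subgroup already seen to be high. The other, LSL-WT+Emp, averaged 6.85 ± 0.20 (SD, n = 3), near the 6.61 of 25,26 and the 6.60 of QM cells. Differences of these mutants from LSL-WT+Emp alone were not tested.

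The parts of the WT comparison that share no array were both lower and of different size. WT+Cre minus Null+Cre was -1.34 ± 0.19, 2.54-fold lower, with an adjusted p of 0.000129 in limma, and the 3 arrays of each did not overlap, as in 25.3% of all probe sets. Without WT replicate 6, whose labels disagree, it was -1.28 ± 0.22 (adjusted p 0.0007 in limma). LSL-WT+Cre minus LSL-WT+Emp was -0.63 ± 0.19 with an adjusted p of 0.0458, and leaving out either WT replicate 1 or 2 or Null replicate 1 or 3 ended the call (differences of -0.83 to -0.48 over the 6 arrays left out in turn), as did no filter, trended variances, the compared arrays alone and leaving out title number 2 (adjusted p 0.0502 to 0.183). With the block its adjusted p was 0.0124, and it held in 3 of 6 fits that left out an array. Their difference of 0.71 ± 0.27 was not called (adjusted p 0.321). Between the control cells, LSL-WT+Emp minus Null+Cre was -1.17 ± 0.19, 2.25-fold lower, with an adjusted p of 0.024 in limma, a comparison added after the values were seen and one that lost its call without Null replicate 1, 2 or 4 (adjusted p up to 0.112), with the compared arrays alone (0.3) and without title number 2 (0.0875).

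The other 3 Igf1 probe sets moved the same way, at levels near the filter value of 4.79. They averaged 5.59, 5.47 and 5.16 over 23 arrays and 5.26, 5.32 and 4.85 in WT cells, and the last was above that value on 20 arrays. In WT minus Null they were lower by -1.13 ± 0.29, -0.54 ± 0.13 and -1.01 ± 0.21, all called by limma (adjusted p 0.00738, 0.00581 and 0.00149). Their correlation with the first over 23 arrays was 0.92, 0.90 and 0.87, a description of probe sets that share the gene. In 53,54 minus Null these 3 were also called, and none was with only the compared arrays fitted (adjusted p 0.0863 to 0.131 in limma). In 25,26 minus Null the third and the fourth Igf1 probe set were called (-0.54 ± 0.14, adjusted p 0.035, and -0.85 ± 0.22, adjusted p 0.0386, in limma). Both calls were lost in 8 and in 7 of 11 fits that left out an array (adjusted p up to 0.103 and 0.0865), and with Xist as a covariate, the compared arrays alone or without title number 2 (0.0688 to 0.187).

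**Figure D2:**
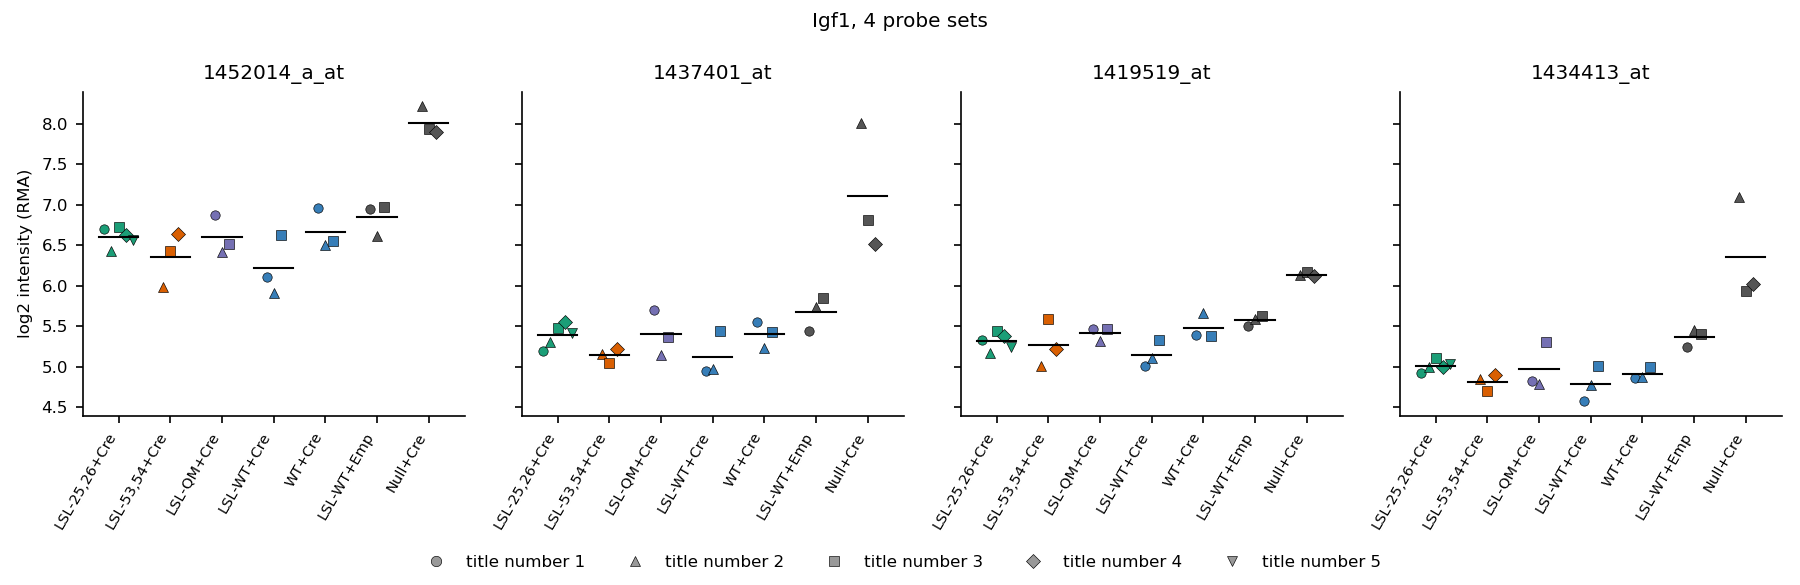
Log2 RMA intensity of the 4 Igf1 probe sets by subgroup on a shared scale, with marker shape for the title number and a line at the subgroup mean. In each panel the 3 Null+Cre arrays lie above the other 20, and in all panels but the third the array with title number 2 is the highest of them. How common such a separation is among all probe sets is not given here.

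The Null+Cre arrays also stood apart in the mean level of the fibroblast and of the epithelial markers. In the other marker lists (macrophage, endothelial, muscle, adipocyte, cartilage, neural and hepatocyte) their range overlapped that of other subgroups. How many of all probe sets set Null+Cre apart is not given here. The mean log2 level of the 12 fibroblast markers was 13.06 to 13.63 in Null+Cre, against 11.83 to 12.88 on the other 20 arrays. That of 6 epithelial markers was 7.08 to 7.64 in Null+Cre, against 8.52 to 8.90 in WT+Cre and 7.70 to 7.80 in LSL-WT+Emp. Single markers were not alike. In WT+Cre minus Null+Cre limma called Col3a1, Pdgfra, Pdgfrb, Dcn and Lum lower and no other fibroblast marker. Fn1 was at 0.45, Vim at 0.07 and S100a4 at -0.07. Krt18, Krt19 and Dsp (3.76) were called higher, while Epcam (0.08), Krt8 (0.23) and Cdh1 were not called. In LSL-WT+Emp minus Null+Cre no marker of either list was called (lowest adjusted p 0.0778 in limma, for Dcn). The 3 Null+Cre arrays were all of the 129 strain, and none had a log2 level of Xist, which the inactive X chromosome transcribes, above 8, which all 3 WT+Cre arrays did. With the Xist level as a covariate, WT+Cre minus Null+Cre for Igf1 was -1.25 ± 0.22 (adjusted p 0.00239 in limma), and with strain -1.38 ± 0.19 (adjusted p 0.000136). The part of the marker differences in the Igf1 result was not tested. LSL-WT+Emp and Null+Cre also differ in virus and allele, which cannot be told apart.

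Igf2, the fetal ligand expressed from the paternal allele, varied between arrays more than between groups. Its first probe set had log2 levels of 13.61, 13.70, 13.02, 12.57 and 12.88 in 25,26 cells, of 13.55, 12.93 and 12.84 in 53,54 cells and of 12.88, 13.62 and 13.19 in QM cells. It had 12.70, 13.29 and 12.03 in LSL-WT+Cre and 13.09, 12.32 and 13.23 in WT+Cre, against 13.04, 13.95 and 12.68 in LSL-WT+Emp and 12.65, 12.54 and 11.95 in Null+Cre. All 5 groups overlapped. WT minus Null was -0.02 with a 95% interval from -0.62 to 0.57, and QM minus WT was 0.46 with an interval from -0.27 to 1.18. The second Igf2 probe set was not called in any comparison either.

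Igf1r, the signalling receptor for both ligands, had lower means in WT than in Null cells by less than the test could call on its first probe set. That probe set averaged 10.25 ± 0.21 in 25,26, 10.13 ± 0.20 in 53,54, 10.24 ± 0.28 in QM and 10.06 ± 0.27 in WT cells, against 10.36 ± 0.18 in Null cells (SD, n = 5, 3, 3, 6 and 6). WT minus Null was -0.30 ± 0.13 with an adjusted p of 0.125 in limma. With the title number as a block the first was again not called by limma. It was at -0.26 ± 0.11 (adjusted p 0.103) in WT minus Null and -0.28 ± 0.14 (adjusted p 0.161) in 53,54 minus Null. In that fit other Igf1r probe sets passed: the third was lower in WT than in Null by -0.26 ± 0.09 (adjusted p 0.0484 in limma). In 53,54 minus Null the blocked fit called the second (-0.35 ± 0.09, adjusted p 0.00447), the third (-0.34 ± 0.12, adjusted p 0.0358) and the fourth (-0.33 ± 0.09, adjusted p 0.0145) in limma. In 53,54 minus QM it called the second, at -0.33 ± 0.10 (adjusted p 0.0321 in limma). Under the block 27.4% of all probe sets were called in WT minus Null, 26.1% in 53,54 minus Null and 18.2% in 53,54 minus QM. For these other Igf1r probe sets no fit that left out an array is given here. In WT+Cre minus Null+Cre the first was at -0.46 ± 0.18 (adjusted p 0.0969), and without WT replicate 6 it was called at an adjusted p of 0.0267 in limma. The 5 Igf1r probe sets did not follow each other closely, with correlations of 0.04 to 0.72 with the first.

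Igf2r, the receptor that removes Igf2, was higher in WT and 53,54 cells than in Null cells on one probe set without the block and on both with it. The first probe set had log2 levels of 11.18, 12.66, 12.08, 11.73 and 11.80 in 25,26 cells, of 12.76, 12.15 and 11.94 in 53,54 cells and of 11.57, 12.07 and 11.62 in QM cells. It had 11.72, 12.68 and 12.18 in LSL-WT+Cre and 11.50, 12.45 and 12.23 in WT+Cre, against 11.05, 11.88 and 11.45 in LSL-WT+Emp and 11.83, 11.46 and 11.28 in Null+Cre. The 3 arrays of 53,54 all lay above the 6 Null arrays, as 16.2% of all probe sets did in one direction or the other, while the other groups overlapped Null.

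The second probe set was called without the block. It averaged 10.79 ± 0.30 in 25,26, 11.13 ± 0.34 in 53,54, 10.85 ± 0.05 in QM and 11.07 ± 0.40 in WT cells, against 10.45 ± 0.33 in Null cells (SD). WT minus Null was 0.61 ± 0.18, 1.53-fold higher, with an adjusted p of 0.0201 in limma, which became 0.0574 without Null replicate 6 and 0.0536 without WT replicate 6. It was also lost with the Xist level as a covariate (adjusted p 0.0681), with only the compared arrays fitted (0.0545) and without the arrays of title number 2 (0.104). The 53,54 minus Null difference was 0.68 ± 0.22, 1.60-fold higher, with an adjusted p of 0.0417, and was lost in 5 of 9 fits that left out an array (53,54 replicate 2 or 3, or Null replicate 1, 5 or 6, adjusted p up to 0.277). No filter, strain or Xist as a covariate, the compared arrays alone and leaving out title number 2 also ended it (adjusted p 0.0511 to 0.133). The first probe set, at 0.64 ± 0.23 in WT minus Null (adjusted p 0.0614) and 0.79 ± 0.28 in 53,54 minus Null (adjusted p 0.0637), was not called by limma.

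Much of the spread of Igf2r lay between title numbers. On the first probe set all 7 arrays numbered 2 lay above their subgroup mean (by 0.45 on average), and none of the 5 numbered 1 did. Where WT and Null subgroups share a number, the same-number difference was 0.66, 0.80 and 0.73 for LSL-WT+Cre minus LSL-WT+Emp and 0.63 and 0.78 for WT+Cre minus Null+Cre. It was thus higher with p53 in 5 of 5 pairs by a similar amount, and on the second probe set in 5 of 5 pairs by 0.47 to 1.15. The first probe sets of Igf1, Igfbp3 and Igfbp6 also had 1 sign in 5 of 5 pairs. The share of all probe sets that do so is not given here. With the title number as a block, WT minus Null was 0.68 ± 0.10 on the first probe set (adjusted p 4.26e-05 in limma) and called in all 12 fits that left out an array. In LSL-WT+Cre minus LSL-WT+Emp the blocked difference was 0.73 ± 0.14 on the first probe set (adjusted p 0.00101 in limma), called in 6 of 6 such fits, and 0.49 ± 0.17 on the second (adjusted p 0.0498), called in 0 of 6. In WT+Cre minus Null+Cre it was 0.63 ± 0.14 (adjusted p 0.0047) and 0.77 ± 0.18 (adjusted p 0.00598), both called in 6 of 6.

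With the block, the first Igf2r probe set was also called in 25,26 minus Null, and neither was in QM minus Null. Against Null, 25,26 was higher by 0.52 ± 0.11 (adjusted p 0.005) and 53,54 by 0.75 ± 0.12 (adjusted p 0.000112) on the first probe set in limma. On the second, 25,26 minus Null was 0.45 ± 0.14 (adjusted p 0.0511), called in 2 of 11 fits that left out an array. QM minus Null was 0.39 ± 0.16 on the second probe set and not called. On the first it was 0.30 ± 0.12 (adjusted p 1, in a comparison with 0.0177% of all probe sets called under the block). Also on the first, QM minus WT was -0.37 ± 0.12 (adjusted p 0.0281) and 53,54 minus QM 0.44 ± 0.14 (adjusted p 0.0347) in the same fit. These 2 calls held in 5 of 9 and in 1 of 6 fits that left out an array. The second probe set was not called in either of these (adjusted p 0.376 and 0.365). The blocked counts of member probe sets called were 7 in WT minus Null, 9 in 53,54 minus Null and 3 in 25,26 minus Null, against 27.4%, 26.1% and 10.1% of all probe sets. They were 2 in QM minus WT (20.3%), 3 in 53,54 minus QM (18.2%), 5 in LSL-WT+Cre minus LSL-WT+Emp (22.7%) and 6 in WT+Cre minus Null+Cre (24.9%), 1 in LSL-WT+Emp minus Null+Cre (0.18%) and 2 in LSL-WT+Cre minus WT+Cre (11%), and the blocked F test called 9 (28.5%). Without the block, the Xist level as a covariate took WT+Cre minus Null+Cre on the first probe set to 0.26 ± 0.38, against 0.54 ± 0.34 in the fit without it, neither called by limma.

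**Figure D3:**
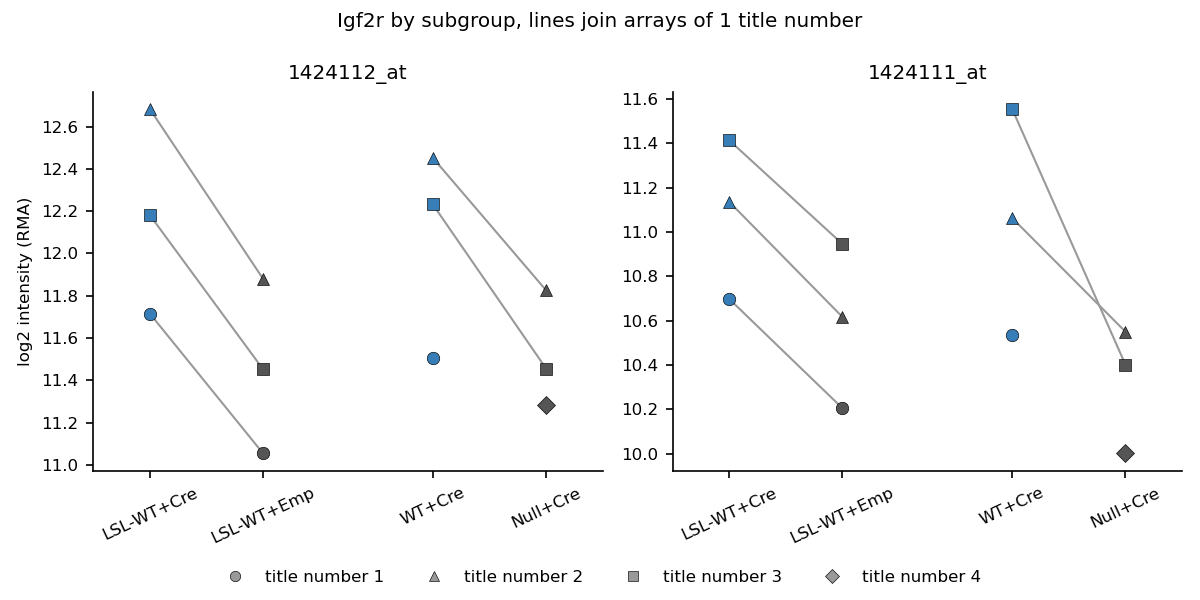
Log2 RMA intensity of the 2 Igf2r probe sets in LSL-WT+Cre, LSL-WT+Emp, WT+Cre and Null+Cre, with grey lines joining arrays that share a title number. All 5 lines in each panel fall towards the cells without p53. The differences run from 0.63 to 0.80 in the left panel and from 0.47 to 1.15 in the right one. The share of all probe sets with 5 lines of 1 direction is not given here.

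Igfbp6, the binding protein that prefers Igf2 over Igf1, was highest in QM cells. Its single probe set had log2 levels of 10.32, 9.53, 9.48, 9.76 and 9.48 in 25,26 cells, of 9.02, 9.26 and 9.33 in 53,54 cells and of 10.32, 10.16 and 10.23 in QM cells. It had 9.74, 8.90 and 9.31 in LSL-WT+Cre and 9.78, 8.62 and 9.61 in WT+Cre, against 9.92, 9.95 and 9.33 in LSL-WT+Emp and 9.07, 9.70 and 9.64 in Null+Cre. The QM arrays lay above every WT, Null and 53,54 array, and 25,26 replicate 1 reached their level. For QM and Null the share of all probe sets without overlap is not given here.

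QM minus WT was 0.91 ± 0.24, 1.88-fold higher, with an adjusted p of 0.0181 in limma. It was the 1 call among the 28 probe sets there, against 9.35% of all probe sets called in either direction (5.43% higher) and 12.1% whose groups did not overlap. The call was lost without QM replicate 1, 2 or 3 (adjusted p 0.0843, 0.0534 and 0.0646) and with the compared arrays alone (0.0781), and the difference was 0.67 ± 0.22 (adjusted p 0.0997) without the arrays of title number 2. With the block it was 0.91 ± 0.18 (adjusted p 0.00158 in limma) and called in 9 of 9 fits that left out an array. The 53,54 minus QM difference was -1.03 ± 0.28, 2.04-fold lower, with an adjusted p of 0.0191 in limma, again the 1 call among 28, against 9.61% (5.37% lower) and 25.2% without overlap. That call was lost in 4 of 6 fits that left out an array (53,54 replicate 2 or 3, QM replicate 1 or 3, adjusted p up to 0.0802). With the block it was -0.91 ± 0.22 (adjusted p 0.00697 in limma), called in 5 of 6 such fits. QM minus Null, at 0.64 ± 0.24, and 25,26 minus QM, at -0.52 ± 0.25, were not called (adjusted p 1 and 0.659). In the 5 same-number pairs of WT and Null subgroups Igfbp6 was lower with p53 in all 5, by -1.05 to -0.02, while WT minus Null was -0.27 ± 0.20 (adjusted p 0.431). The share of all probe sets with 1 sign in all 5 pairs is not given here.

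Igfbp3, the main carrier of IGFs in blood, differed widely between arrays of 1 group. Its first probe set had log2 levels of 10.83, 12.73, 11.92, 11.37 and 10.62 in 25,26 cells, of 12.81, 12.34 and 11.31 in 53,54 cells and of 12.71, 12.12 and 10.88 in QM cells. It had 12.74, 11.57 and 12.67 in LSL-WT+Cre and 11.61, 13.43 and 12.57 in WT+Cre, against 12.47, 10.30 and 12.36 in LSL-WT+Emp and 12.36, 12.05 and 11.64 in Null+Cre. The groups overlapped, and no comparison was called without array weights. WT minus Null was 0.57 with a 95% interval from -0.34 to 1.47, although all 5 same-number pairs were higher with p53, by 0.26 to 1.28. The share of all probe sets with 1 sign in all 5 pairs is not given here. The difference 25,26 minus WT was -0.94 ± 0.46 (adjusted p 0.309), and with arrays weighted by their fit -1.27 ± 0.39 (adjusted p 0.0402) in limma.

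Igfbp5, which binds IGFs and components of the matrix, was high on 1 control array. The first of its 2 probe sets had log2 levels of 11.09, 11.00, 10.63, 10.14 and 10.74 in 25,26 cells, of 10.40, 10.01 and 10.14 in 53,54 cells and of 10.16, 10.91 and 10.87 in QM cells. It had 9.28, 10.74 and 9.65 in LSL-WT+Cre and 9.54, 9.73 and 9.92 in WT+Cre, against 10.12, 12.21 and 10.42 in LSL-WT+Emp and 9.60, 9.78 and 9.65 in Null+Cre. Within LSL-WT cells each same-number pair was lower with Cre, by -0.84, -1.47 and -0.77, while the pairs of WT+Cre and Null+Cre differed by 0.13 and 0.14. LSL-WT+Cre minus LSL-WT+Emp was -1.03 ± 0.41 (adjusted p 0.157), and -1.03 ± 0.36 with the block (adjusted p 0.0499 in limma). The blocked call held in 3 of 6 fits that left out an array, with differences of -1.31 to -0.50 and adjusted p up to 0.309. The difference 25,26 minus WT was 0.91 ± 0.36 (adjusted p 0.173 in limma), and without the arrays of title number 2 it was 1.05 ± 0.22 (adjusted p 0.0183). The second Igfbp5 probe set averaged 8.44 ± 0.42 in LSL-WT+Cre and 8.91 ± 0.78 in LSL-WT+Emp (SD). It averaged 8.63 ± 0.47 in 25,26 and 8.31 ± 0.34 in WT cells (SD), and was called in neither comparison, with or without the block.

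Igfbp7, a low-affinity IGF binder that is known to be secreted by human melanocytes with an activated RAF oncogene, was lower in LSL-WT+Cre than in WT+Cre cells on 1 of its 3 probe sets. Its first probe set averaged 11.04 ± 0.94 in LSL-WT+Cre and 12.30 ± 0.35 in WT+Cre, against 10.90 ± 1.19 in LSL-WT+Emp and 12.17 ± 1.13 in Null+Cre (SD, n = 3 each). It averaged 10.70 ± 0.17 in 25,26, 11.21 ± 0.69 in 53,54 and 10.91 ± 0.79 in QM cells. LSL-WT+Cre minus WT+Cre was -1.26 ± 0.59 (adjusted p 0.375), and -1.26 ± 0.34 with the block (adjusted p 0.027 in limma), a call that held in 2 of 6 fits that left out an array (adjusted p up to 0.139). The second probe set averaged 7.06 ± 0.10 in LSL-WT+Cre and 7.18 ± 0.12 in WT+Cre (SD) and was not called there. Its correlation with the first over 23 arrays was -0.16. The third probe set averaged 5.69 over 23 arrays, not far above the filter value of 4.79. It was lower in LSL-WT+Cre (5.41 ± 0.23, SD) than in WT+Cre (6.51 ± 0.38) by -1.11 ± 0.24, 2.15-fold, with an adjusted p of 0.0337 in limma. It was the 1 call of 28, against 1.23% of all probe sets (0.628% lower), and 14.5% did not overlap. This comparison was added after the values were seen, and its call was lost without WT replicate 1, 3, 4 or 6 (adjusted p up to 0.2), with the compared arrays alone (0.325) and with Xist as a covariate (0.0771), whose log2 level was above 8 on 1 of 3 LSL-WT+Cre and 3 of 3 WT+Cre arrays. Without WT replicate 6 it was -1.01 ± 0.28 (adjusted p 0.0673), and with the block it was called (adjusted p 0.00913) and held in 4 of 6 fits that left out an array. WT minus Null for the first probe set was 0.14 with a 95% interval from -0.86 to 1.14.

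Igfbp4, an inhibitor of IGF action that the protease Pappa cleaves, and Igfbp2, another high-affinity binder, had no call. Igfbp4 averaged 12.40 ± 0.37 in 25,26, 12.25 ± 0.32 in 53,54, 12.76 ± 0.32 in QM and 12.46 ± 0.40 in WT cells, against 12.70 ± 0.15 in Null cells (SD). Its 5 other probe sets followed the first closely, with correlations of 0.898 to 0.996 over 23 arrays. The difference 53,54 minus QM of -0.51 ± 0.25 (adjusted p 0.256) was -0.52 ± 0.18 with array weights (adjusted p 0.0453) in limma. Igfbp2 averaged 5.37 ± 0.30 in 25,26, 5.22 ± 0.10 in 53,54, 5.57 ± 0.30 in QM and 5.38 ± 0.31 in WT cells, against 5.25 ± 0.25 in Null cells (SD). Both genes overlapped between all groups and gave WT minus Null intervals of -0.61 to 0.13 and -0.19 to 0.45.

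**Figure D4:**
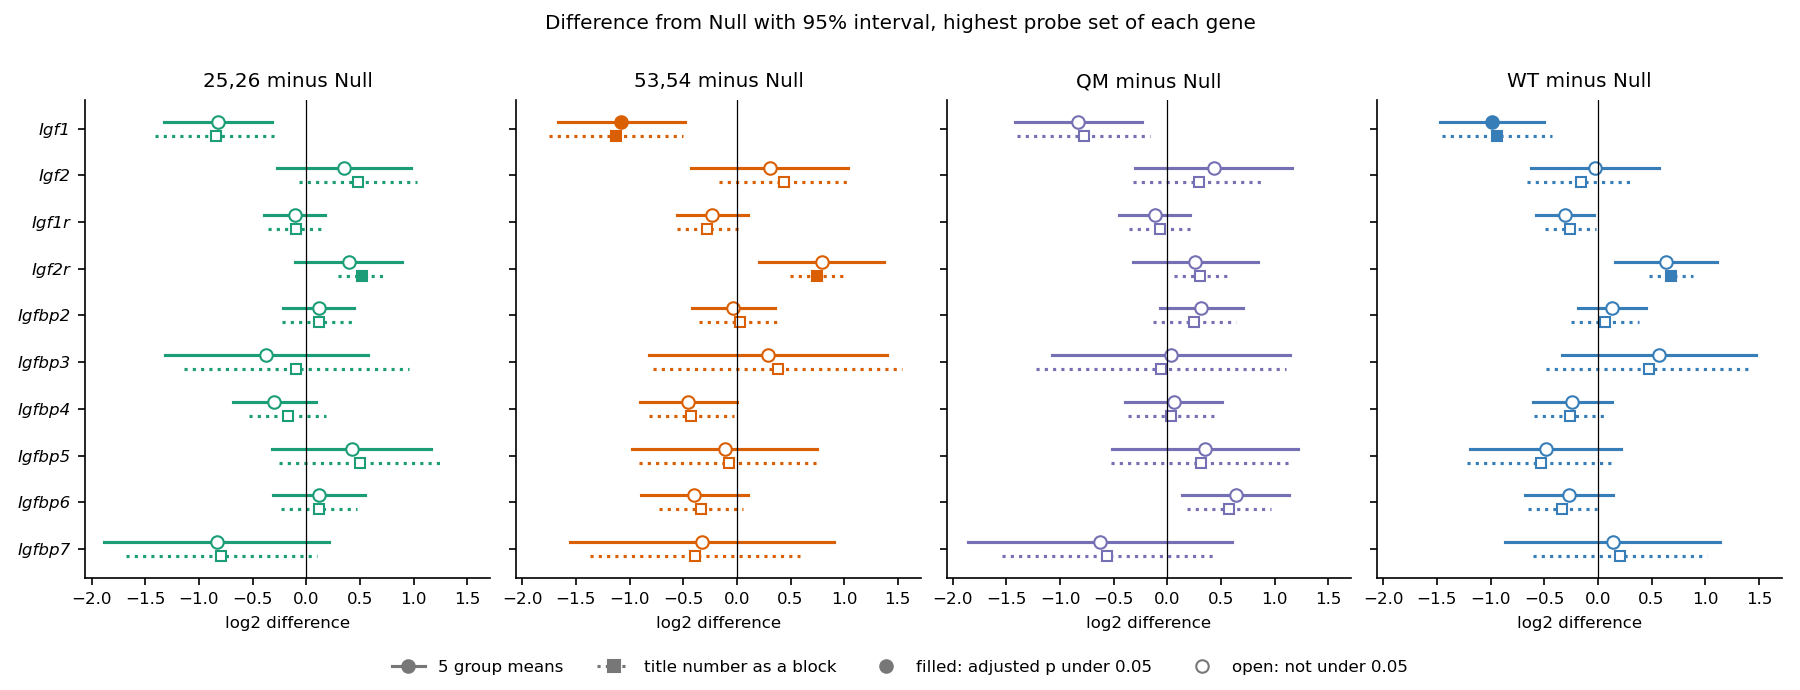
Log2 difference from Null for the highest probe set of each of the 10 genes, in 25,26, 53,54, QM and WT cells, with 95% intervals from limma; circles with solid lines are group means and squares with dotted lines have the title number as a block, filled where the adjusted p is under 0.05. Igf1 lies left of 0 and Igf2r right of 0 in all 4 panels, and the Igf2r intervals narrow under the block.

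In the comparisons of mutants with WT and with each other few members were called. In 25,26 minus WT limma called none of 28 (2 at an unadjusted p under 0.05, against 16.7%), where 4.83% of all probe sets were called. In 53,54 minus WT it called none (0 at an unadjusted p under 0.05, against 6.1%), where 0.194% were called. In 25,26 minus QM it called none (1 at an unadjusted p under 0.05, against 7.52%), where 0.38% were called. These zeros do not show equal levels: for Igf1 the 95% interval of 25,26 minus WT ran from -0.34 to 0.67 and that of 53,54 minus WT from -0.68 to 0.50. In the LSL-WT part limma called 2 of 28, both Igf1 and lower, against 8.29% in either direction (4.71% lower), and in WT+Cre minus Null+Cre 4 of 28, all Igf1 and lower, against 12.5% (6.09% lower). Between those parts none differed by a called amount in limma (5 at an unadjusted p under 0.05, against 10.3%), where 0.0206% were called. LSL-WT+Emp minus Null+Cre had 2 of 28 called, both Igf1 and lower, against 0.133% of all probe sets (0.0884% lower). The second of these calls, on the second Igf1 probe set, was lost with the block (-1.47 ± 0.30, adjusted p 0.0585), with strain (0.0502) or Xist (0.0536) as a covariate, with the compared arrays alone (0.698), without title number 2 (0.0943) and without Null replicate 1, 2, 3 or 4 (up to 0.196).

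Downstream of the receptor some genes of IGF signalling changed while most did not pass the test. Of 28 listed genes 25 were measured, and in WT minus Null 4 were higher and 2 lower, where 8.15% of all probe sets were higher and 8.78% lower, with a median of 0.08, against -0.01 over all probe sets. Grb14, an adaptor that binds and restrains insulin and IGF receptors, averaged 10.70 ± 0.50 in WT and 9.46 ± 0.20 in Null cells, a difference of 1.25 ± 0.19 (adjusted p 5.69e-05 in limma). Foxo3, a transcription factor that Akt keeps out of the nucleus, was higher by 1.12 ± 0.21 (adjusted p 0.000611). Grb10, an imprinted relative of Grb14, was lower by -0.39 ± 0.08 (adjusted p 0.000996), and Pdk1, by this symbol pyruvate dehydrogenase kinase and not the kinase that activates Akt, by -1.15 ± 0.22 (adjusted p 0.000839). In 53,54 minus Null the same 4 genes were called in the same directions, with Grb14 at 0.82 ± 0.23 and Foxo3 at 1.39 ± 0.26. In 25,26 minus Null none of 25 was called, where 2.7% of all probe sets were, and Grb14 was lower in 25,26 than in WT by -1.12 ± 0.19 (adjusted p 0.00174 in limma).

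Among partners, proteases and their inhibitors 13 of 14 genes passed the filter, and 2 were higher and 1 lower in WT minus Null (all probe sets 8.15% and 8.78%), with a median of -0.01, against -0.01 over all probe sets. Ctsd, the lysosomal protease cathepsin D, which Igf2r is known to sort, averaged 12.59 ± 0.32 in 25,26, 13.08 ± 0.28 in 53,54 and 13.10 ± 0.23 in WT cells, against 11.79 ± 0.21 in Null cells. It was higher than Null in all 3 comparisons, by 0.80 ± 0.15 (adjusted p 0.00316), 1.29 ± 0.17 (adjusted p 1.86e-05) and 1.31 ± 0.14 (adjusted p 1.31e-06). Prss23, a secreted serine protease, was higher in WT by 1.07 ± 0.33 (adjusted p 0.0276) and Stc2, an inhibitor of Pappa, lower by -0.55 ± 0.14 (adjusted p 0.00931) in limma. The Prss23 difference was 0.41 (adjusted p 0.557) in LSL-WT+Cre minus LSL-WT+Emp and 1.73 (adjusted p 0.00102) in WT+Cre minus Null+Cre. Pappa itself was not called in WT minus Null (0.76 ± 0.41, adjusted p 0.248), was lower in 25,26 than in WT by -1.53 ± 0.43 (adjusted p 0.0434), and was higher in WT+Cre than in Null+Cre by 1.37 ± 0.36 (adjusted p 0.0156). It was at 0.16 ± 0.36 in LSL-WT+Cre minus LSL-WT+Emp (adjusted p 0.91), and lower in LSL-WT+Cre than in WT+Cre by -2.01 ± 0.36 (adjusted p 0.014). Both measured Igf2 mRNA-binding proteins, Igf2bp1 and Igf2bp3, were lower in WT than in Null (8.78% of all probe sets were), by -0.52 ± 0.17 (adjusted p 0.037) and -0.29 ± 0.10 (adjusted p 0.0434). Of 12 measured genes of the imprinted network to which Igf2 belongs, Plagl1 was higher (0.72 ± 0.25, adjusted p 0.0492) and Grb10 and Dcn lower (Dcn by -1.09 ± 0.25, adjusted p 0.00356) in WT minus Null, against 8.15% and 8.78% of all probe sets. Plagl1 was at 1.33 (adjusted p 0.00222) in WT+Cre minus Null+Cre and 0.12 (adjusted p 0.907) in LSL-WT+Cre minus LSL-WT+Emp. Dcn, which is also 1 of the 12 fibroblast markers whose mean level was high in Null+Cre, was at -1.80 (adjusted p 0.000102) and -0.38 (adjusted p 0.475) in limma. Grb10 was called in both parts, at -0.37 (adjusted p 0.0228) and -0.42 (adjusted p 0.013). Between the parts limma called no difference for Plagl1, Dcn, Pappa or Prss23 (adjusted p 0.201, 0.132, 0.39 and 0.239).

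The genes whose log2 level was most like that of a member over the 23 arrays differed from member to member. Among 15266 genes, Dact1 was nearest to Igf1 (Pearson r 0.93), Peak1 to Igf2r (0.93), Rflnb to Igfbp7 (0.91), Cdr2 to Igf1r (0.87), Tbx2 to Igf2 (0.86), Cdh1 to Igfbp3 (0.84) and Crcp to Igfbp6 (0.84). Igf2 and Igfbp5 had the imprinted gene Mest among their nearest 3 (0.81 and 0.79), and Igf2 also Dlk1 (0.77), another imprinted gene. Among members, Igf2 and Igfbp5 correlated at 0.77 (0.72 within subgroups), Igfbp3 and Igfbp4 at 0.57 (0.78 within subgroups) and Igf2r and Igfbp6 at -0.63 (-0.69 within subgroups). These correlations describe 23 arrays that share groups and title numbers.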

How the data were processed

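RNA of 23 mouse embryonic fibroblast samples was measured on Affymetrix oligonucleotide arrays. The authors deposited 1 column of intensity values per sample on a linear scale, made with RMA per the submitters' processing notes; version and options are not given in the sources used here. Values were taken to log2, and 64 control probe sets were left out of 45101. Of the rest 34945 carried 1 gene symbol in the platform annotation, 932 carried several, and 9160 are unnamed here. The filter asked for a log2 level over 4.79, the 30th percentile of the whole table, on 3 or more arrays.

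A fit of 5 group means, and one of 7 subgroup means for the parts of WT and Null, was made with limma 3.58.1 in R 4.3.3 (lmFit, eBayes, two-sided, Benjamini-Hochberg over 33942 probe sets). Groups follow the sample titles. WT replicates 1 to 3 are LSL-WT+Cre and 4 to 6 WT+Cre; Null replicates 1 to 3 are LSL-WT+Emp and 4 to 6 Null+Cre. For WT replicate 6, titled WT+Cre, the genotype label reads LSL-WT with Cre, and that of Null replicate 6 adds the word knock-in. The most similar pair of arrays, 25,26 replicates 4 and 5, differed in Xist (log2 6.63 and 12.12), so no 2 arrays were counted as 1.

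Whether equal title numbers pair arrays was checked from the correlation of deviations from subgroup means. Every same-number pair passed 0.1 in all comparisons (10 of 10 in WT with Null, median 0.45, against -0.22 for other numbers), though 53,54 with QM and WT+Cre with Null+Cre have only 2 pairs. Named genes are all members, and of each pathway list up to 4 genes with the largest moderated statistic in WT minus Null among those called in any comparison. Members, lists and tests were chosen with earlier results of these data known. The number of arrays limits the precision. The method was tested on simulated data. Trp53, H-Ras and some list members are not analysed here. Promoter windows come from RefSeq (GRCm38.p6). Alternatives covered filters, probe set choice, normalization, strain, Xist, title number, variance models and arrays left out.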

Additional observations from a re-analysis of the deposited data

Results flagged for a closer look

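Igfbp5 in Null replicate 2, an LSL-WT+Emp array with title number 2, had a log2 level of 12.21, far above the other Null arrays (9.60 to 10.42). The gap made up 0.684 of the group's range. It was the 1 value that stood apart this way among 30 tests of a gene in a group of 4 or more arrays, where chance gives about 1 in 20.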

How the results depend on the processing

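Single differences were followed for the highest probe set of each gene and for the other member probe sets called without the block, and not for the rest. Of 4440 alternative values for 210 single differences (23 called), 4300 kept their side of the threshold, 93 lost a call and 47 gained one. No called difference turned its sign, and 239 values of uncalled differences did. The counts of member probe sets called depended on the setting as follows. The F test called 5, against 2 with a mean level above the median, with 1 probe set per gene or with a gene's probe sets averaged, 3 with Xist as a covariate or without title number 2, 9 with the title number as a block or with array weights, and 1 to 6 with an array left out. WT minus Null called 5, against 3, 2 and 2 under those probe set choices, 3 with the compared arrays alone and 4 to 6 with an array left out. For 25,26 minus Null the 2 calls became 0 with a mean above the median, 1 probe set per gene, Xist, the compared arrays alone or without title number 2, 1 with the mean of probe sets, 4 with array weights or Null+Cre alone as Null, and 0 to 3 with an array left out. For 53,54 minus Null the 5 became 2, 1 and 2 under the probe set choices, 9 with the block, 8 with array weights, 1 when the compared arrays were fitted alone, 3 without title number 2, and 2 to 5 with an array left out. QM minus Null gave 3 with Null+Cre alone as Null, and 25,26 minus WT 2 with array weights and 1 without title number 2. QM minus WT gave 2 with the block, 0 when the compared arrays were fitted alone or without title number 2, and 0 to 1 with an array left out. For 53,54 minus QM the 1 became 3 with the block, 6 with array weights and 0 to 1 with an array left out. LSL-WT+Cre minus LSL-WT+Emp gave 1 without a filter, with a mean above the median, under the other probe set choices and with trended variances, 5 with the block, 0 when the compared arrays were fitted alone or without title number 2, and 0 to 2 with an array left out. WT+Cre minus Null+Cre gave 1 under the 3 probe set choices and 4 to 5 with an array left out. The F count was 3 without Null replicate 4 and 1 without Null replicate 5 or 6. The 25,26 minus Null count was 0 without any of the 5 arrays of 25,26 or without Null replicate 5 or 6, and 1 without Null replicate 4. The 53,54 minus Null count was 2 without 53,54 replicate 2 and 3 without replicate 3. Fewer probe sets of Igf1 enter under those choices; the cause of the other shifts was not tested. The 4 Igf1 calls in WT minus Null held in all 12 fits that left out an array, and that of the second Igf1 probe set was lost with the compared arrays alone (adjusted p 0.053 in limma). Among differences between member probe sets' groups, the block changed no call beyond those whose blocked values are given with the results.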

Other observations

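Transcripts that overlap or neighbour the members gave little signal or little difference. A probe set annotated to both Igf2r and Airn, the noncoding RNA that silences paternal Igf2r in mouse, averaged log2 6.92 in 25,26, 6.84 in 53,54, 6.92 in QM, 6.95 in LSL-WT+Cre and 6.82 in WT+Cre, against 6.76 in LSL-WT+Emp and 6.83 in Null+Cre, and was not counted as a member because it carries 2 symbols. Igfbp1, a binding protein made mainly by liver, averaged at most 4.13 in any subgroup and lay below the filter.

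The promoter windows of the other members varied as widely as those shown. The Igf1r window held 42 CpGs and 2 GC boxes and that of Igfbp7 26 CpGs and 4 GC boxes, while 1 of the 4 windows of Igf2 held 1 CpG and none of the motifs searched. A match to the p53 response element unit was found in 1 of the 4 Igf2 windows and in no window of the other 9 genes.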
